A study of Mus musculus with 42 samples.

Results

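Kidneys of mice fed EpSA were compared with kidneys of mice fed chow at zeitgeber time (ZT, hours after lights on) 25, which is ZT 1 of the following day. Of the 42 mice of the series, 6 belonged to the comparison, 3 listed for each diet, and were taken by the diet and time in their labels. All were wild-type male C57BL/6 mice, 6 weeks old at the start, housed with 12 h of light a day and 12 h of dark. For 14 weeks the controls ate a standard chow and the treated mice a high-fat diet containing 3% EpSA (epoxystearic acid, an oxidised fatty acid found in heated oils). Mice on a high-fat diet lacking EpSA are not analysed here, and the effects of fat and of EpSA cannot be told apart. The authors deposited 1 mean per diet and time in FPKM, a read count per length and per library size, and each such mean is called a pool here. A pool carries no spread between mice and its depth is unknown. Differences are EpSA minus chow on log2(FPKM + 1), a scale that understates the difference of genes at low level.

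The kidney clock is a feedback loop in which BMAL1 and CLOCK activate the Per and Cry genes, whose proteins then repress them. ROR and REV-ERB receptors regulate the loop from the side, and through output factors it sets a daily course for transport, sugar and fat metabolism in the tubules. Beside it, the proximal tubule oxidises fatty acids under PPARalpha, a receptor that fatty acids bind, and makes glucose for the blood. Secreted and membrane proteins of the tubules are folded in the endoplasmic reticulum, whose chaperones are induced when unfolded proteins accumulate.

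Both ZT 25 pools had the genes of a whole kidney. In chow and EpSA in turn, Slc34a1, the phosphate transporter of the proximal tubule, was at 982 and 988 FPKM. Umod of the thick ascending limb was at 737 and 806 FPKM, and Podxl of the podocyte at 34.1 and 43.9 FPKM. The defining adrenal gene Cyp21a1 was listed at 0 in both. The FPKM of all genes summed to 423799 in the chow pool and 405720 in the EpSA pool, between the 400590 and 435621 that bound the 14 pools. Kap, an androgen-dependent transcript of the proximal tubule, took 11.3% of that sum in chow and 8.41% in EpSA, at 47819.6 and 34128.8 FPKM. In whole tissue, fewer cells of a type and less RNA per cell cannot be told apart.

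The diets lay close together at ZT 25. Of the 56691 genes 13344 averaged 1 FPKM or more over the 14 pools, and of these 31 were higher in EpSA by at least 1, a ratio of 2 in FPKM + 1 (0.232%), and 24 were lower (0.18%). The median difference was 0.01 and the median absolute difference 0.11, and 96.6% of genes lay within 0.5 of 0. Protein-coding genes gave 6 of the higher (0.0529% of 11341) and 8 of the lower (0.0705%). In all, 55 genes were at least 1 apart (0.412%). Small RNAs gave 19 of them (10.9% of 174 tested), antibody and T cell receptor segments 7 (26.9% of 26), and genes outside the reference annotation 10 (3.73% of 268). In the plot of difference by level these sit mostly to the left, at low level, and 31 of the 55 had 5 FPKM or less in both pools.

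**Figure D1:**
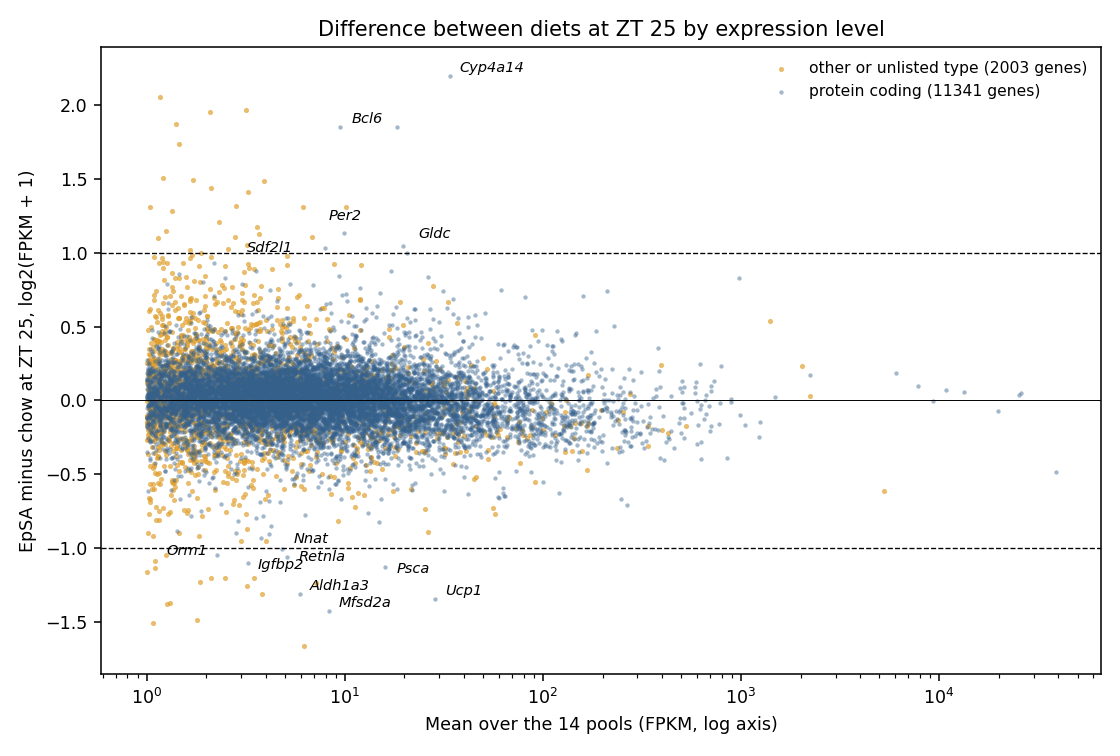
Difference at ZT 25 (EpSA minus chow, log2(FPKM + 1)) against the mean over the 14 pools (FPKM, log axis), 1 point per gene. Blue points are the 11341 protein-coding genes and orange points the 2003 others, and beyond the dashed lines at 1 and -1 lie 14 and 41 of them, the orange ones mostly at low level.

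How far apart pools lie can be read from pools of 1 diet at the same clock hour. ZT 1 and ZT 25 are 24 h apart, and between them 107 genes were at least 1 apart in chow and 97 in EpSA, 73 and 35 of them protein coding. The diets differed in 55 genes at ZT 25, 14 of them protein coding, and in 140 at ZT 1, 94 of them protein coding. At ZT 1 30 were higher (0.225%) and 110 lower (0.824%). The other times ran from 30 higher (0.225%) and 19 lower (0.142%) at ZT 5 to 120 higher (0.899%) and 112 lower (0.839%) at ZT 21. These counts share pools with one another. By count, the diets at ZT 25 lay closer than the days did within either diet. The median absolute difference set them less apart, at 0.113 between the diets at ZT 25. Between the days it was 0.118 in chow and 0.125 in EpSA.

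No gene passed a test. Limma, comparing the difference at ZT 25 with those at the other 6 times, called 0 genes, with a lowest adjusted p of 1.0 (Benjamini-Hochberg over 13344 genes) and 286 at an unadjusted p under 0.05 (2.14%). Limma on the 4 pools of ZT 1 and ZT 25, with diet as the term, also called 0, with a lowest adjusted p of 1.0 and 530 at an unadjusted p under 0.05 (3.97%). Evenly spread p-values would give 667. The error in these tests is the spread between times or days, not between mice, and the second has only 2 residual degrees of freedom. Every value below is therefore a description of the pools.

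The largest protein-coding difference above 0 belonged to a gene of fatty acid use. Positions of genes are those of GRCm38. Cyp4a14, a fatty acid omega-hydroxylase and target of PPARalpha (ENSMUSG00000028715, chromosome 4 from 115486200 to 115496142), was at 12.5 FPKM in chow and 61.0 in EpSA at ZT 25, a ratio of 4.86. The chow value was the lowest of the 14 pools, and EpSA was above chow at every other time, by 0.02 at ZT 1 to 1.58 at ZT 21.

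Bcl6, a repressor of transcription known from germinal centres and, in liver, from the control of lipid genes (ENSMUSG00000022508, chromosome 16 from 23965052 to 23988852), was at 3.41 FPKM in chow and 14.9 in EpSA, a ratio of 4.36. Each chow pool after ZT 5, at 5.94 FPKM, lay above the one before it until ZT 21, at 21.6 FPKM, and the chow value at ZT 25 was then the lowest of the 7. EpSA was the lower diet from ZT 9 to ZT 21, by 2.11 at ZT 21. Gldc, the glycine decarboxylase of the glycine cleavage system (ENSMUSG00000024827, chromosome 19 from 30098447 to 30175429), was at 11.4 FPKM in chow, the lowest of the 14 pools, and 24.7 in EpSA. At the other times its difference lay between -0.51 and 0.36, and limma gave 1.29 ± 0.28 for ZT 25 against them (SE, unadjusted p = 0.0017, adjusted p = 1.0). Gldc was picked by its ZT 25 difference, which enters this estimate and favours a small unadjusted p. Per2 and Sdf2l1, also past 1, are described with the clock and the ER. Just outside the line was Slc25a25, a mitochondrial ATP-Mg carrier, at 10.4 and 21.8 FPKM, a difference of 0.998, and it was higher in EpSA at every time.

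Among the 8 protein-coding genes that were lower in EpSA, Mfsd2a had the largest difference. It encodes a transporter of lysophosphatidylcholine carrying long fatty acids (ENSMUSG00000028655, chromosome 4 from 122946850 to 122961188), and was at 19.0 FPKM in chow, the highest of the 14 pools, and 6.46 in EpSA. It was the only one lower in EpSA at all 7 times, and at ZT 1 stood at 15.8 and 2.31 FPKM. The shared clock hour gave -1.88 ± 0.37 in limma (SE, unadjusted p = 0.003, adjusted p = 1.0). Mfsd2a too was picked by its ZT 25 difference, which enters this estimate and favours a small unadjusted p. Ucp1, the uncoupling protein of brown fat (ENSMUSG00000031710, chromosome 8 from 83290352 to 83298452), was at 40.7 FPKM in chow and 15.4 in EpSA, while at ZT 1 it was at 27.9 and 44.96. All 11 tested fat tissue markers were lower in EpSA at ZT 25, by a median of 0.36, where 47.5% of all genes were lower. Their summed level was 237 FPKM in the chow pool and 156 in the EpSA pool, within the 139 to 317 of all chow pools and the 73.1 to 372 of all EpSA pools. The part of attached fat in the Ucp1 value was not tested.

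Aldh1a3, which makes retinoic acid from retinal (ENSMUSG00000015134, chromosome 7 from 66390890 to 66427517), was at 5.75 FPKM in chow and 1.73 in EpSA, the lowest of the 14 pools. At ZT 17 the order was the other way round, at 4.62 and 16.4 FPKM. Psca, a surface antigen of the urothelium, was at 16.2 and 6.87 FPKM, and Igfbp2, a binding protein of insulin-like growth factors, at 3.83 and 1.26 FPKM. Both EpSA values were the lowest of the 14 pools, and each gene was also lower in EpSA by more than 1 at ZT 13. Retnla, a product of alternatively activated macrophages and of fat, was at 6.81 and 2.75 FPKM, and Orm1, an acute phase protein made mostly by liver, at 3.59 and 1.22 FPKM. Of 12 tested liver markers 10 were lower in EpSA (median -0.30), against 47.5% of all genes, and their part in the Orm1 value was not tested. Nnat, an imprinted proteolipid, was just inside the line at 7.84 and 3.41 FPKM (-1.002), and its chow value was the highest of the 14 pools. Of the 8, 4 had their lowest of 14 values in the EpSA ZT 25 pool, and 2 their highest in the chow ZT 25 pool. Because the 8 were picked by their values in these 2 pools, such ranks are favoured. The shares over all genes, 4.83% and 3.98%, are therefore no yardstick for them. The plot of 13 of these 14 protein-coding genes shows how these genes ran over the day. Cyp4a14 was the only higher gene, of 6, that was higher in EpSA at all 7 times, and Mfsd2a the only lower gene, of 8, that was lower at all 7.

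**Figure D2:**
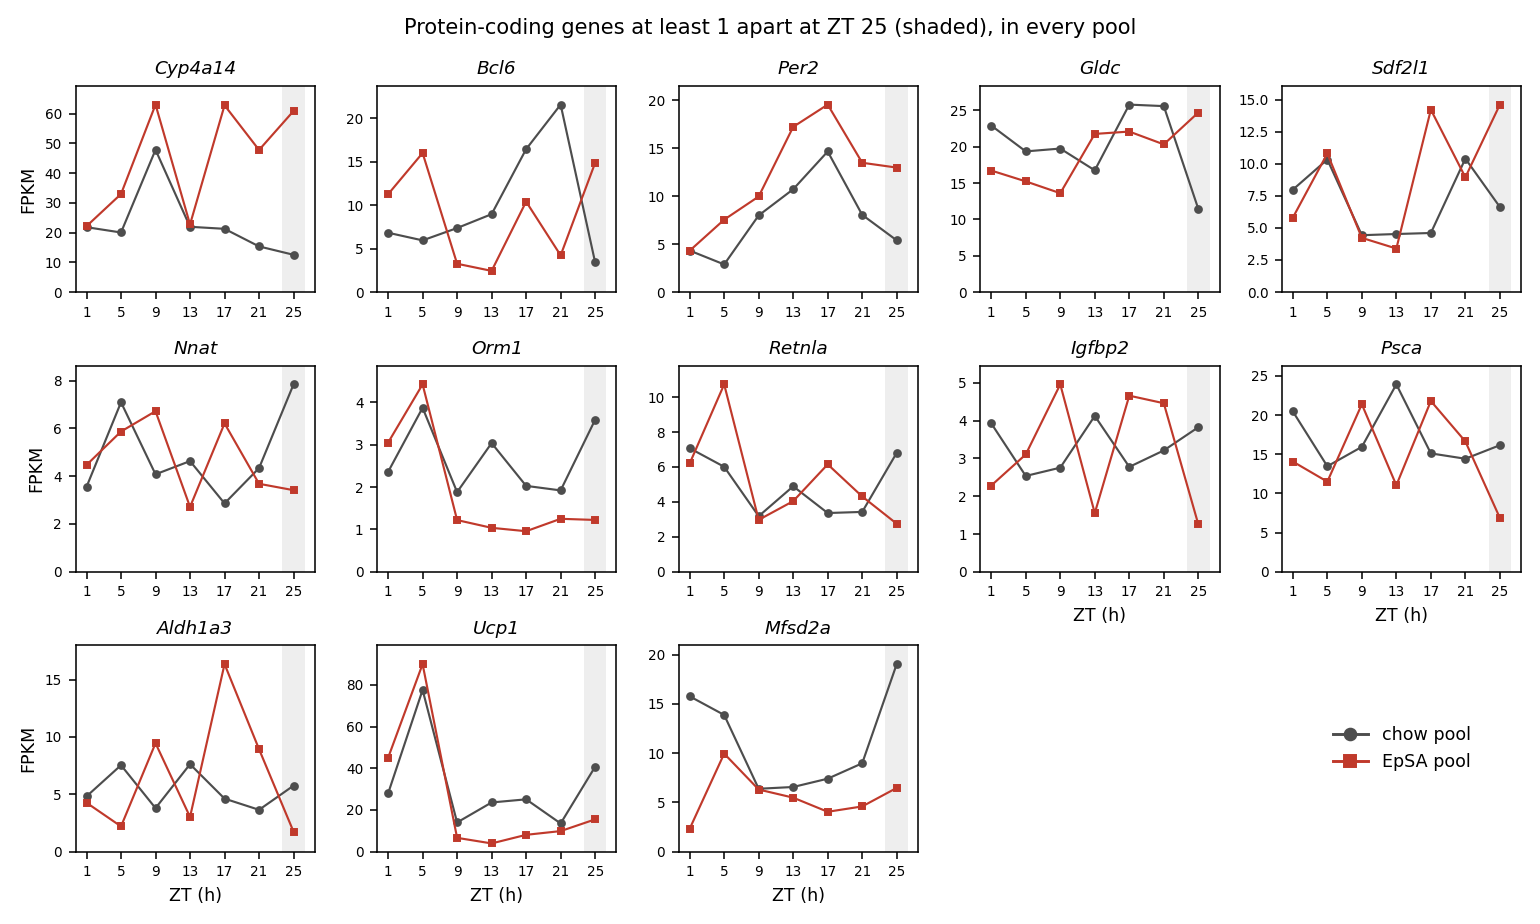
FPKM over ZT (h) of 13 of the 14 protein-coding genes at least 1 apart at ZT 25 (shaded), 1 panel each, with chow pools in grey and EpSA pools in red. Cyp4a14 in EpSA stays above chow throughout and Mfsd2a below it, while the lines of the diets cross for Bcl6 and Aldh1a3.

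Genes of the ER stress response were the list with the highest median at ZT 25. Of 16 tested, 15 were higher in EpSA and 1 lower, against 52.3% and 47.5% of all genes, and the median difference was 0.42 against 0.01 over all genes. These shares over all genes apply to the counts of every list below. The difference reached 1 in 1 of them, and in 0.232% of all genes in this direction. This was Sdf2l1, a component of a chaperone complex of the ER (ENSMUSG00000022769, chromosome 16 from 17130138 to 17132383), at 6.63 FPKM in chow and 14.6 in EpSA. Hspa5, the ER chaperone BiP, was at 154 FPKM in chow and 252 in EpSA (0.71), and its partner Hsp90b1 (GRP94) at 141 and 193 FPKM (0.46). Creld2 was at 29.3 and 49.6 FPKM (0.74) and Manf, a secreted ER-stress protein, at 22.4 and 33.0 FPKM (0.54). Pdia4, a protein disulfide isomerase, was at 42.6 and 64.0 FPKM (0.58). The EpSA ZT 25 pool was the highest of all 14 for Sdf2l1, Hspa5, Pdia4, Hsp90b1 and Calr, where 5.13% of all genes had their highest value in it. The list is singled out here by its ZT 25 differences, which favours such ranks, so the share over all genes is no yardstick for them.

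The other members stood less far apart, regulators and some folding genes among them. Of the 16, 9 were higher by at least 0.3, and the chaperone or folding genes Calr, Dnajc3 and Pdia6 fell below that. Ddit3, the factor CHOP, was at 7.88 and 8.88 FPKM (0.15), Xbp1 at 43.7 and 46.1 FPKM (0.08) and Asns, a target of ATF4, at 2.31 and 2.34 FPKM (0.01). Atf4 itself was the 1 lower member, at 48.9 and 40.4 FPKM (-0.27). Dnajb9, Sesn2 and Herpud1 lay between, from 0.40 to 0.44. Trib3 and Chac1 of the list were below the level for testing.

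The chaperones stood otherwise a day earlier. Hspa5 was at 105 FPKM in EpSA at ZT 1 and 252 a day later, and in chow at 162 and 154 FPKM, so that the diets stood in the opposite order 24 h earlier (-0.62). Creld2 went with it, at 31.7 and 20.4 FPKM in chow and EpSA at ZT 1. Over the list the median difference was -0.20 at ZT 1 and, at the other times, highest at ZT 17, at 0.41. Limma gave Hspa5 0.68 ± 0.45 for ZT 25 against the other times (SE, unadjusted p = 0.17, adjusted p = 1.0).

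Chaperone genes of the ER are known to carry the ER stress element, CCAAT and CCACG set 9 bases apart, which ATF6 and NF-Y bind. The element was searched after the values were seen, on both strands, in RefSeq promoters of 300 bases (build GRCm38.p6, 250 before and 50 after the start). It was present in 39 of 32851 promoters (0.119%) and in 6 of the 15 promoters matched to the ER stress list, those of Calr, Creld2, Dnajc3, Hsp90b1, Hspa5 and Pdia6. Sdf2l1 had no match in its window. The 250 bases before the start follow for the 3 of these genes with the largest differences, 5′ to 3′ on the strand of the gene, with the arms of each match in capitals. In Creld2, and in the second match of Hsp90b1, the element reads on the other strand as CGTGG and ATTGG.
Hspa5 (chr2:34771840-34772089, plus strand): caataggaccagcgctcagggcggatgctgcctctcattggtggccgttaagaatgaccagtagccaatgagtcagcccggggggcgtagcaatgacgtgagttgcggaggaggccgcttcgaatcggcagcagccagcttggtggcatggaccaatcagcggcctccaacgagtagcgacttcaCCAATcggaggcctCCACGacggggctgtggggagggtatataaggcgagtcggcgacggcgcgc
Creld2 (chr15:88819396-88819645, plus strand): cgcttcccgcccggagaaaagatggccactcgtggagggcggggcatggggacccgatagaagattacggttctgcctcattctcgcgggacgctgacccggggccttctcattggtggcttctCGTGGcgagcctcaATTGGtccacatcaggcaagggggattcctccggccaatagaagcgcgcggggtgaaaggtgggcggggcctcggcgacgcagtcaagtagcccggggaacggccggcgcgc
Hsp90b1 (chr10:86705445-86705694, minus strand): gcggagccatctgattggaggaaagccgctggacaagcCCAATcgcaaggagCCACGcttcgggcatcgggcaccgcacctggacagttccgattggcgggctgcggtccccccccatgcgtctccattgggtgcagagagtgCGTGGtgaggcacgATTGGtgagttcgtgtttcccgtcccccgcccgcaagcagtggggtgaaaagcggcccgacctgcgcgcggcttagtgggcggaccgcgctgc

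The match begins 65 bases before the start in Hspa5 and 126 bases before it in Creld2, and the matches in Hsp90b1 begin 212 and 107 bases before it. A match is a description of letters and not of binding.

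The Per and Cry repressors of the clock stood higher in EpSA at ZT 25. Per2 (ENSMUSG00000055866, chromosome 1 from 91415982 to 91459324) was at 5.39 FPKM in chow and 13.0 in EpSA, a ratio of 2.41 and a difference of 1.13, as large as at ZT 5 (1.14). Cry1 was at 3.34 and 5.51 FPKM (0.58) and Cry2 at 2.75 and 4.58 FPKM (0.57). Per3 was at 2.07 and 3.36 FPKM (0.51) and Per1 at 2.69 and 3.95 FPKM (0.42), with the chow value of Per1 the lowest of the 14 pools. Bhlhe40, another repressor (DEC1), was at 15.1 and 20.4 FPKM (0.41). Of the 18 clock genes tested 14 were higher in EpSA and 4 lower, against 52.3% and 47.5% of all genes, with a median of 0.27. A difference of 1 was reached by 1 of them, and by 0.232% of all genes in this direction.

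The activators and the REV-ERB genes stood otherwise. Arntl, which encodes BMAL1, was at 3.04 and 3.19 FPKM (0.05), Clock at 4.31 and 4.89 FPKM (0.15) and Npas2, a partner of BMAL1, at 2.75 and 1.86 FPKM (-0.39). Nr1d1, the repressor REV-ERBalpha, was the lowest member, at 4.37 and 3.04 FPKM (-0.41), and Nr1d2 and Rora were each within 0.02 of 0. Of the output factors, Hlf and Tef were higher in EpSA, by 0.37 and 0.26, while Dbp and Nfil3 differed by -0.10 and -0.02. Ciart, a repressor at low level, was at 0.60 and 0.96 FPKM (0.29).

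**Figure D3:**
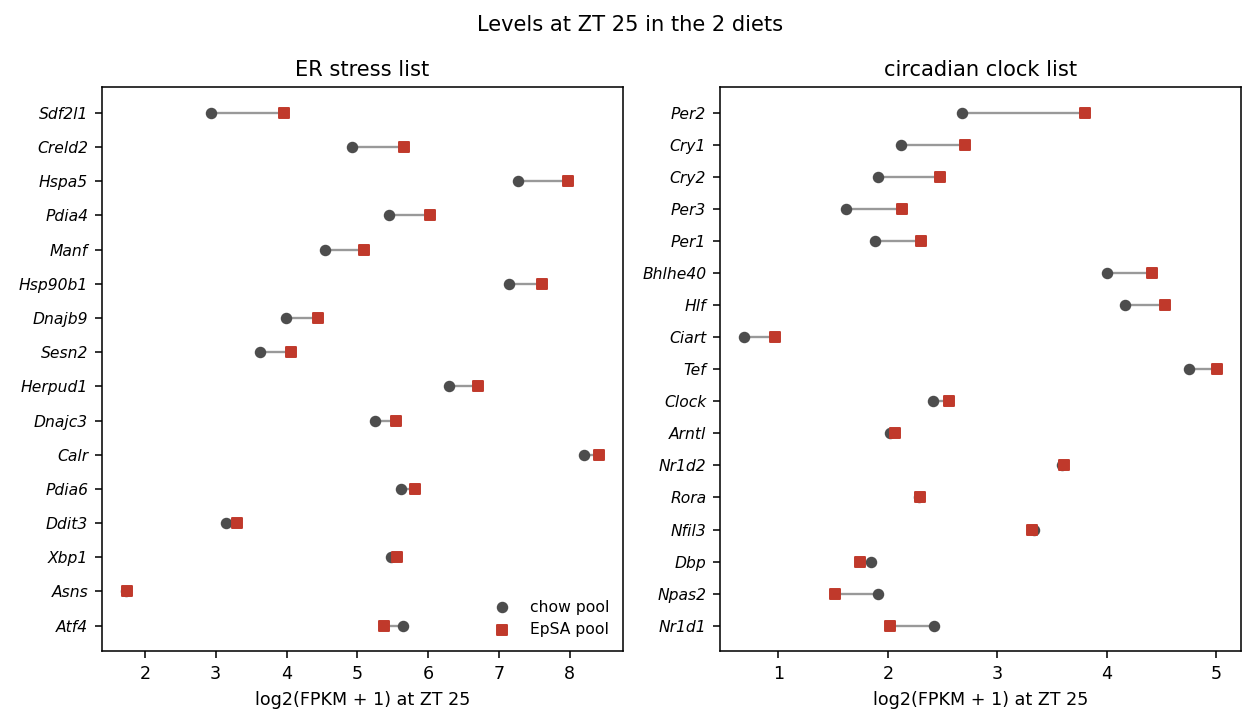
Level at ZT 25 (log2(FPKM + 1)) of 16 ER stress genes and 17 of the 18 tested clock genes in the chow pool (grey circles) and the EpSA pool (red squares), joined by a line and sorted by difference. In the left panel 15 of 16 squares lie right of the circle, and in the right panel 13 of 17, with Per2 widest apart and Nr1d1 and Npas2 turned round.

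Several clock genes in EpSA stood at ZT 25 far from their value 24 h earlier. At ZT 1 and ZT 25 in turn, Cry1 was at 1.58 and 5.51 FPKM in EpSA and at 3.70 and 3.34 in chow, and Per2 at 4.31 and 13.0 in EpSA and at 4.33 and 5.39 in chow. Nr1d1 was the other way round in EpSA, at 10.5 and 3.04 FPKM, and stood at 4.46 and 4.37 in chow. For these genes the EpSA pool of ZT 25 was nearer to the EpSA pool of ZT 21, at 6.44 FPKM for Cry1, 13.5 for Per2 and 1.97 for Nr1d1, than to that of ZT 1. This was not so for every clock gene. In EpSA at ZT 1, ZT 21 and ZT 25, Clock was at 4.88, 5.52 and 4.89 FPKM and Dbp at 2.38, 1.95 and 2.36 FPKM. The E-box CACGTG, which BMAL1 and CLOCK bind, was searched in the promoters of 15 of the 18 clock genes. Per2 had no promoter entry and was not searched. The E-box was found in 5 of the 20 promoters matched (25.0%; Ciart, Cry1, Per1 and Tef) and in 7.15% of all promoters, a description of letters only.

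The glucose list was split, at 8 higher and 6 lower of 14 tested (median 0.13), close to the 52.3% of all genes that were higher. Pck1, the kidney's gluconeogenic PEP carboxykinase, was at 628 FPKM in chow, the lowest of the 14 pools, and 1116 in EpSA (0.83). G6pc, glucose-6-phosphatase, was at 178 and 298 FPKM (0.74), and Slc2a2, the glucose exporter GLUT2, at 25.0 and 32.7 FPKM (0.37). Fbp1 differed little, at 597 and 651 FPKM (0.13). Pklr, a pyruvate kinase of the opposite direction, was also higher, at 7.07 and 12.2 FPKM (0.71).

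Genes of insulin and FOXO signalling, several of which are induced by fasting, were higher by small amounts. Of 15 tested 14 were higher and 1 lower (median 0.12). Ppargc1a, the coactivator PGC-1alpha, was at 7.96 and 11.3 FPKM (0.45), Klf15 at 18.1 and 24.3 FPKM (0.41), Txnip at 89.3 and 116 FPKM (0.38) and Foxo3 at 6.12 and 7.87 FPKM (0.32). The chow values of Ppargc1a, Klf15 and Foxo3 were the lowest of the 14 pools. These genes were named for the size of their difference between the diets, which favours such ranks. The share over all genes, 5.46%, is therefore no yardstick for them. Among PPARalpha targets and enzymes of fatty acid oxidation 21 were higher and 6 lower (median 0.13). Below Cyp4a14 came members such as Acot3 at 4.08 and 6.48 FPKM (0.56) and Cyp4a10 at 110.4 and 148 FPKM (0.41). The core enzymes Cpt1a, Acadm and Acadl lay between -0.12 and -0.02. Reads of the Cyp4a and Acot genes can be shared with close copies.

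Enzymes of amino acid breakdown gave 12 higher and 9 lower of 21. After Gldc came Ftcd, of histidine breakdown, at 6.69 and 10.6 FPKM (0.59) and Glud1, glutamate dehydrogenase, at 114 and 155 FPKM (0.45). Bcat1, a transaminase of branched amino acids, was lower, at 8.61 and 5.66 FPKM (-0.53). Sterol and fatty acid synthesis gave 9 higher and 20 lower of 29 with a median of -0.05, a sign that turned when the pools were scaled to the same sum (0.01). Its desaturase Scd1 was at 92.6 and 59.8 FPKM (-0.62). Among oxylipin enzymes Ephx1, the microsomal epoxide hydrolase, was at 25.8 and 38.5 FPKM (0.56), and Cyp4a12a was at 105 and 75.5 FPKM (-0.48).

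Housekeeping lists leaned to chow. Of 28 cytosolic ribosomal protein genes 27 were lower in EpSA and 1 higher, with a median of -0.21, and of 28 nuclear genes of the respiratory chain 26 were lower and 2 higher, with a median of -0.21. The steps were small and close together. Rplp1 was at 470.4 FPKM in chow and 376 in EpSA (-0.32), Rpl28 at 5.14 and 3.02 FPKM (-0.61), Ndufa2 at 226 and 168 FPKM (-0.42) and Atp5k at 209 and 165 FPKM (-0.34). The 17 proteasome genes gave 13 lower and 4 higher (-0.16). Subunits encoded in the mitochondrial genome did not lean with them, at 6 higher and 7 lower of 13 and a median of -0.00, which became 0.06 with pools scaled to the same sum. The same lists had larger medians at ZT 21, at -0.63 for ribosomal and -0.64 for respiratory genes, when Kap took 14.5% of the chow sum and 7.12% of the EpSA sum. The part of Kap in these medians was not tested.

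**Figure D4:**
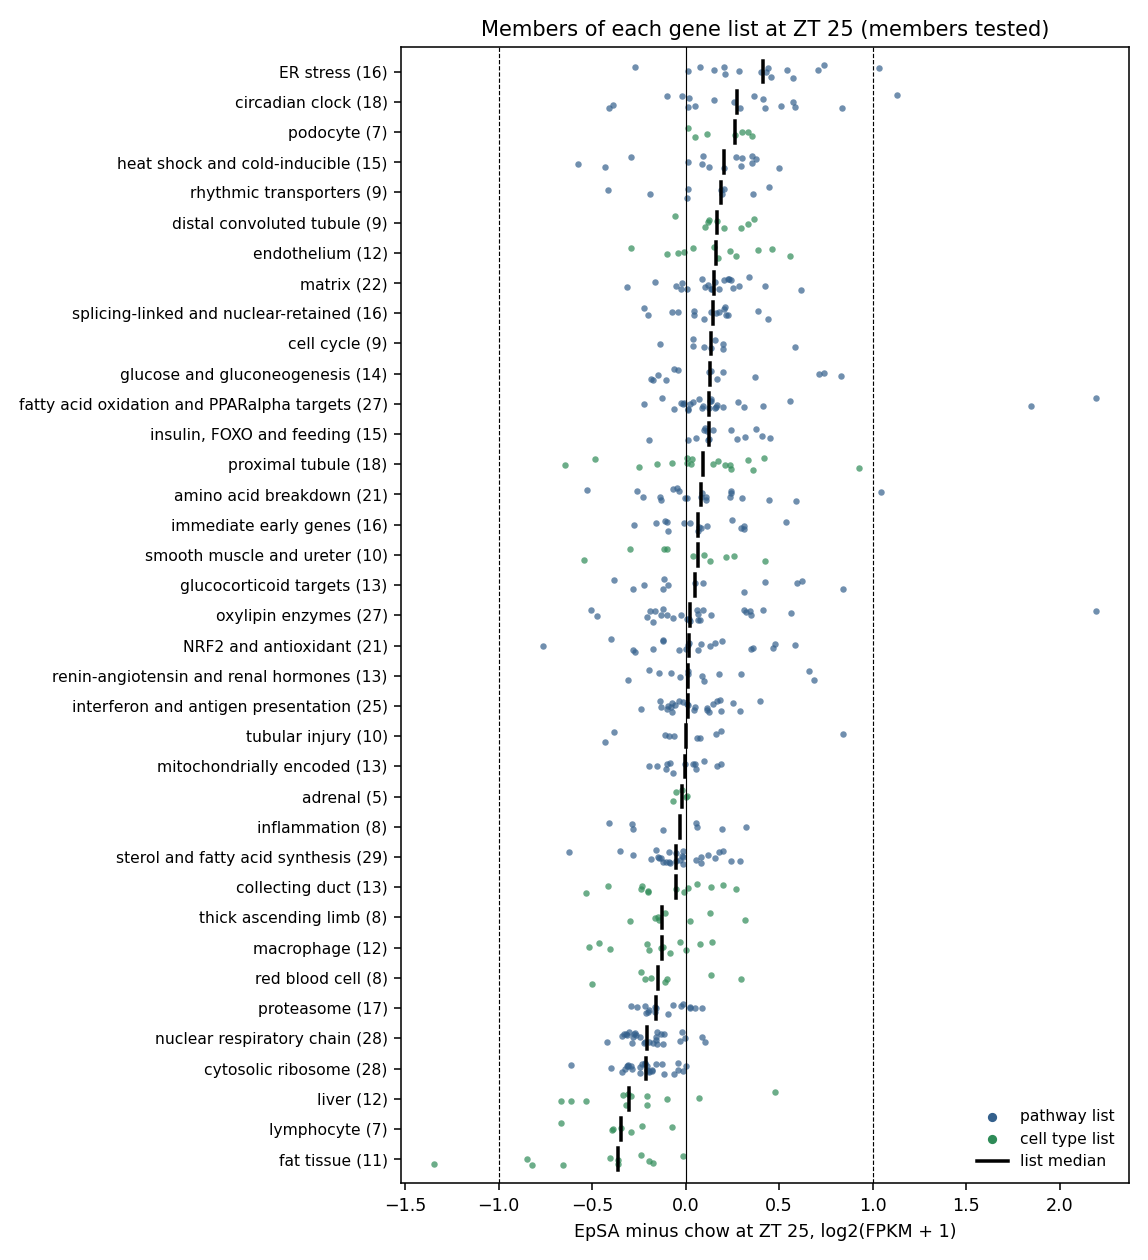
Difference at ZT 25 (EpSA minus chow, log2(FPKM + 1)) of every tested member of 37 gene lists with at least 5 tested members, pathway lists in blue and cell type lists in green, with a black bar at each list median. Medians run from 0.42 for ER stress to -0.36 for fat tissue, and few points lie beyond the dashed lines at 1 and -1.

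Heat shock genes split. Hspa8, the constitutive HSC70, was at 204 and 289 FPKM (0.50) and Hsp90aa1 at 69.7 and 90.7 FPKM (0.37), among 12 of 15 that were higher. The inducible Hspa1a and Hspa1b were lower, at 3.68 and 2.47 FPKM (-0.43) and 9.84 and 6.27 FPKM (-0.58), and their EpSA ZT 25 values were the lowest of the 14 pools. They are near-identical copies, so the split of reads between them is uncertain. At ZT 1 both had been higher in EpSA, at 6.26 and 17.0 FPKM for Hspa1a.

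The glucocorticoid, renal hormone and NRF2 lists gave single genes rather than a lean of the whole list. Cell cycle and matrix genes leaned to EpSA by small amounts. Of 13 glucocorticoid targets 7 were higher and 6 lower, with Cdkn1a, a cell cycle inhibitor, at 5.87 and 11.3 FPKM (0.84), Sgk1, a kinase of sodium transport, at 16.0 and 25.1 FPKM (0.62), and Tsc22d3 (GILZ) at 9.28 and 14.5 FPKM (0.59). Fkbp5 was lower, at 9.12 and 7.69 FPKM (-0.22). Ren1, renin, was at 24.9 and 40.6 FPKM (0.69), and Cyp27b1, which activates vitamin D, at 0.60 and 1.53 FPKM (0.66). Among NRF2 genes Hmox1, heme oxygenase, was at 17.5 and 26.7 FPKM (0.58) and Akr1b3, aldose reductase, at 12.9 and 7.16 FPKM (-0.76). Ccnd1, cyclin D1, was at 25.7 and 39.1 FPKM (0.58), among 8 of 9 cell cycle genes that were higher (median 0.14), and Ccn2, a matrix-associated growth factor, at 16.8 and 26.3 FPKM (0.62), among 17 of 22 matrix genes (0.15). Scnn1a, a sodium channel subunit, was at 19.0 and 26.3 FPKM (0.45), and Aqp2, the vasopressin-regulated water channel, at 102 and 76.2 FPKM (-0.41), its lowest value of the 14 pools.

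Markers of the nephron and vessels differed by little, and not in 1 direction. All 7 tested podocyte genes were higher (median 0.26), with Podxl at 34.1 and 43.9 FPKM (0.36) and Wt1 at 1.15 and 1.71 FPKM (0.34). In the distal convoluted tubule 8 of 9 were higher (0.17), led by Slc12a3, the cotransporter NCC, at 100.4 and 130 FPKM (0.37). Of 12 endothelial genes 8 were higher, led by Ehd3 of the glomerular endothelium at 4.40 and 6.95 FPKM (0.56). In the proximal tubule 13 of 18 were higher (0.09), while Slc22a7, an organic anion transporter, was at 92.3 and 58.6 FPKM (-0.65). In the thick ascending limb 5 of 8 were lower (-0.12), with Cldn19, a claudin of its tight junctions, at 8.53 and 6.75 FPKM (-0.30), and 3 were higher, with Egf at 63.2 and 79.1 FPKM (0.32). In the collecting duct 8 of 13 were lower and 5 higher, with a median of -0.05 that became 0.01 with pools scaled to the same sum.

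Macrophage and lymphocyte markers leaned to chow. Macrophage genes were lower in 9 of 12 (median -0.13), with Lyz2 at 39.8 and 27.5 FPKM (-0.51) and C1qa at 17.7 and 13.1 FPKM (-0.41), against a median of -1.15 at ZT 1. All 7 tested lymphocyte genes, Igkc and Ighm among them, were lower (median -0.35), with a summed level of 212 FPKM in chow and 178 in EpSA. Interferon and antigen presentation genes were split, at 14 higher and 11 lower of 25 and a median of 0.01, where the median at ZT 1 had been -1.57. Their summed level at ZT 25, 835 FPKM in chow and 839 in EpSA, was the lowest of the 7 pools of each diet.

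**Figure D5:**
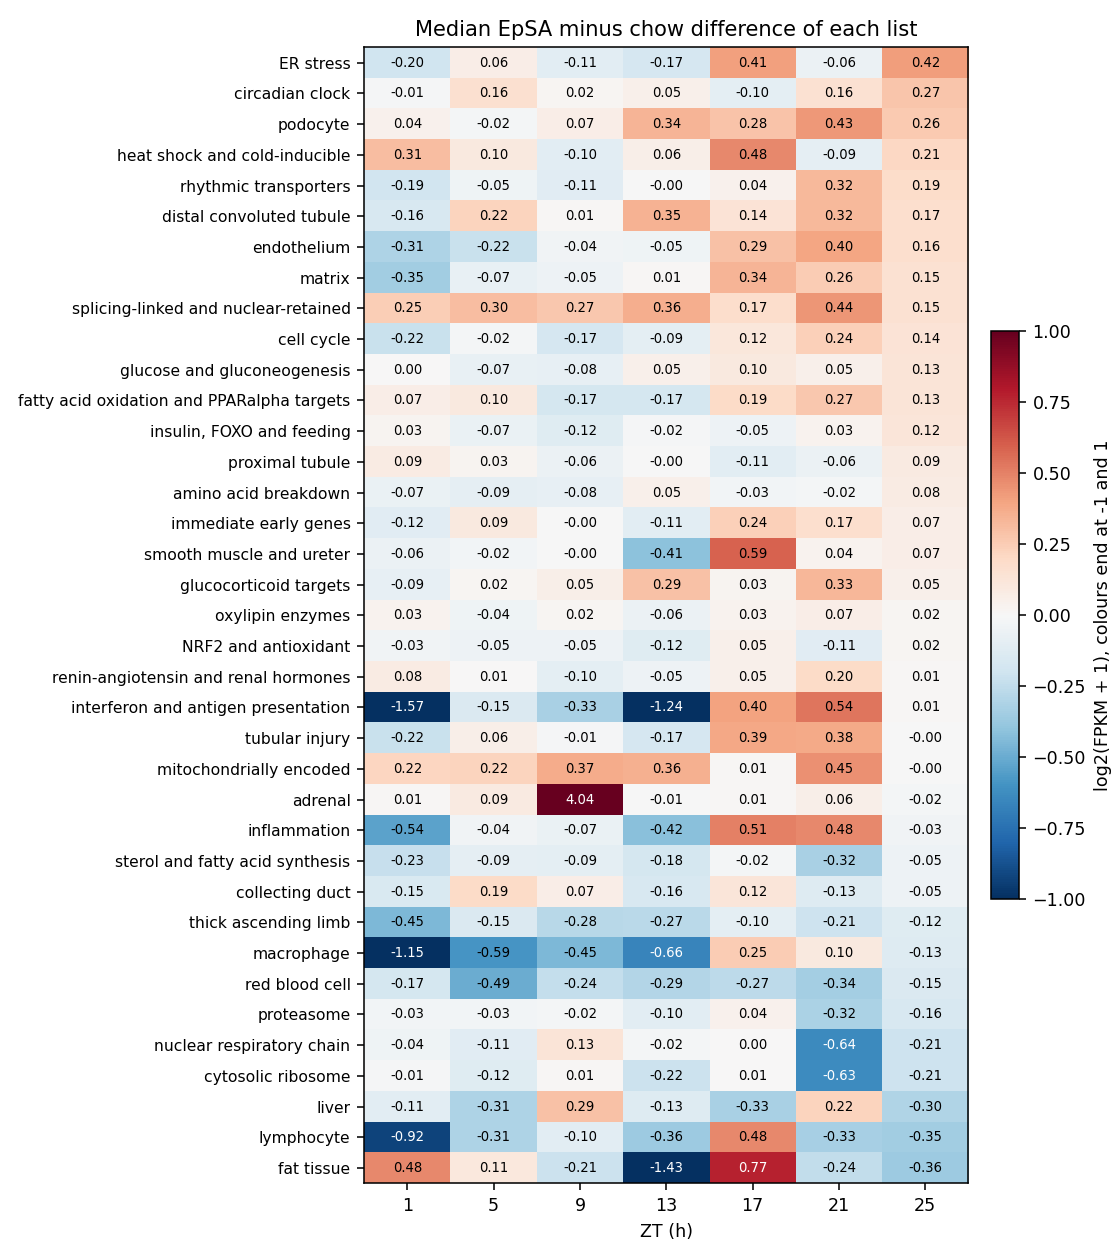
Median difference (EpSA minus chow, log2(FPKM + 1)) of each gene list, in rows, at each ZT (h), in columns, with red above 0, blue below 0 and colours ending at 1 and -1. The ZT 25 column runs from 0.42 for ER stress to -0.36 for fat tissue and is paler than the ZT 1 and ZT 21 columns, where the interferon list stands at -1.57 and 0.54.

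Antibody genes were divided. Of 26 tested antibody and T cell receptor segments 6 were higher by at least 1 and 1 lower, against 0.232% and 0.18% of all genes. Ighg2c, a constant region of IgG, was at 3.11 FPKM in chow and 15.03 in EpSA, and no other pool passed 4.52 FPKM. Igkj4, Igkj5 and Igkv8-30, segments of the kappa light chain, were at 0.54, 0.51 and 0.75 FPKM in chow and 3.36, 4.03 and 3.26 FPKM in EpSA. Ighj1 was listed at 0 in chow and at 3.14 FPKM in EpSA. In contrast Igkc, the shared kappa constant region, was lower, at 167 and 142 FPKM (-0.23), and Ighm, the constant region of IgM, at 20.9 and 16.3 FPKM (-0.35). Reads of such segments can be shared with one another. The lymphocyte genes Cd3e, Cd4, Cd8a, Cd79a and Ms4a1 were below the level for testing, and the part of antibody-secreting cells in these values was not tested. Trbd1, a segment of a T cell receptor, was at 1.79 FPKM in chow and listed at 0 in EpSA.

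Small RNA genes made up the rest of the named differences. Snord53, a small nucleolar RNA, was at 0.28 FPKM in chow, the lowest of the 14 pools, and 3.93 in EpSA, the highest, and Snord98 and Snord71 were at 0.63 and 2.30 FPKM in chow and 3.58 and 7.23 in EpSA. Rnu73b was at 3.00 and 8.91 FPKM, and the mitochondrial tRNA mt-Tc at 3.49 and 10.1 FPKM. Reads at Mir23b were at 0.84 and 3.99 FPKM and at Mir5107 at 0.49 and 2.44 FPKM. In the other direction Mir7085, Mir7051, Mir3971 and Mir1198 were between 1.78 and 3.51 FPKM in chow and between 0.27 and 0.96 in EpSA, and Mir7030 and Mir5620 were listed at 0 in EpSA. The pseudogenes Rps15-ps2 and Hspe1-ps6 were at 9.14 and 2.21 FPKM and at 4.52 and 1.32 FPKM, and their reads can be shared with the parent genes. Paired reads of 150 bases are longer than a mature microRNA, and whether these reads come from the small RNA or from an overlapping transcript was not tested.

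The genes at least 1 apart at ZT 25 were also looked up at the other times. Of the 31 higher genes the number also higher in EpSA ran from 16 at ZT 1, where 43.2% of all genes were, to 23 at ZT 21, and 3 were higher at all other times. Of the 24 lower genes the number also lower ran from 9 at ZT 9 to 16 at ZT 13, with 13 at ZT 1, and 1 was lower at all other times. Apart from ZT 1, these counts are given without the share over all genes. Whether the called genes kept their side less often than other genes was not tested. At ZT 21 7 of the 31 were again higher by at least 1 and 2 were lower by at least 1. Of all genes, 0.899% and 0.839% were so at that time. Across all 13344 genes, the differences at ZT 25 had a Pearson r of 0.00 with those at ZT 1, 0.38 with those at ZT 21 and 0.33 with those at ZT 13, pairs of comparisons that share no pool. Genes are not independent replicates, and these values are descriptive.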

How the data were processed

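Per the labels' protocols, kidney RNA was sequenced as paired reads of 150 bases. The authors deposited 2 tables of 56691 genes, 1 per diet, with 7 expression columns each. How reads were aligned and counted, and on which build, is not given in the sources used here. Headers name no unit, and the deposited values were read as FPKM from their size and sums. Their thousandths end in 0, 3 or 7, so each was read as a mean over the 3 mice listed. The EpSA table has another abbreviation in its header, and sample descriptions tie that table to the diet.

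The 13344 genes averaging 1 FPKM or more over 14 pools were compared as log2(FPKM + 1). A difference of at least 1 counted as apart. Limma 3.58.1 (R 4.3.3) was fitted to the 7 diet differences with a term for ZT 25 (5 residual degrees of freedom) and to the 4 pools of ZT 1 and ZT 25 (2), with Benjamini-Hochberg adjustment at 0.05. It was tested on simulated data. Whether the 3 mice are separate litters or cages is not stated. Symbols came from the reference names for 52073 identifiers, and gene types from a GENCODE M21 annotation of GRCm38. Python 3.11.15 with numpy 2.4.6, pandas 2.3.3 and matplotlib 3.10.9 served for the rest.

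The comparison, its 39 gene lists and the tests were chosen with earlier results of these data known. Genes were named by rule: the 15 highest and 15 lowest differences with a symbol that is not a model number (4 and 7 passed over), all tested clock genes, up to 4 members per list with a difference of at least 0.3, and the 2 nearest to 1 on each side. Those of the last kind without a descriptive symbol are not named, and other members were named after their values were seen. Some genes that the rule selects are not reported here. Other settings tried were pseudocount, low-value filter, scaling, call rule, time block, variance trend and leaving out single times.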

Additional observations from a re-analysis of the deposited data

Results flagged for a closer look

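Bcl6 and Aldh1a3 differed between the diets by at least 1 in opposite directions at different times, a contrast that was not tested. Bcl6 was higher in EpSA at ZT 25 by 1.85, and its difference was -1.54 at ZT 13 and -2.11 at ZT 21. Aldh1a3 was at -1.31 at ZT 25, and at 1.13 at ZT 9, 1.63 at ZT 17 and 1.1 at ZT 21. Each of these values compares 1 mean of 3 listed mice with another.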

How the results depend on the processing

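The number of genes at least 1 apart depended on low values. Against 31 higher and 24 lower, a pseudocount of 0.1 gave 102 and 72 and one of 0.5 gave 61 and 41. No filter on low values gave 61 and 41, a mean of at least 5 FPKM gave 9 and 7, and a ratio of 1.5 as the rule gave 176 and 122. Protein-coding genes only, chosen after seeing the data, gave 6 and 8. Scaling to the same sum, setting the median to 0 and quantile normalization gave 31 to 37 higher and 23 to 24 lower.

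Limma for ZT 25 against the other times called 38 higher and 52 lower genes with no filter on low values (38370 genes, lowest adjusted p 9.65e-06), and 0 and 0 under every other setting run, where the lowest adjusted p was between 0.347 and 1.0. Leaving out each of the other 6 times gave 0 to 0 in each direction. The shared clock hour gave 0 under all settings run, with a lowest adjusted p between 0.244 and 1.0. No paired analysis was possible because replicate numbers have no columns of their own, each column being 1 mean per diet and time. The differences are paired by time only, and a block for ZT 1 or ZT 25 also gave 0 at the shared clock hour.

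Under these settings the named genes at least 1 apart kept their sign, as did list medians at or beyond 0.06, while named genes less than 1 apart were not tried. In 15 of 236 repeats of those genes the value moved by more than 1.5 times or came inside 1, 14 of them low genes under a smaller pseudocount and the other Nnat, at -0.95 with pools scaled to the same sum. Of list medians 2 moved by 0.1 or more, both at a pseudocount of 0.1. Counting error cannot be stated without the depth.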
